A study of Mus musculus with 6 samples.

Results

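The mouse Ms4a gene family was described across the leukocytes of metastatic liver through 5 of its members, Ms4a1, Ms4a4b, Ms4a4c, Ms4a6c and Ms4a6d. The members were found by their symbols and all 5 were present in each of the 3 deposited matrices, which together hold 5301 genes. The matrices hold 10 genes of the family in all. None of the features joined a member with another gene.

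Ms4a genes encode small membrane proteins that cross the membrane several times, and most of them are expressed by blood cells, each in its own set of cell types. Ms4a1 encodes CD20, the B cell surface protein that therapeutic antibodies such as rituximab bind in humans. Ms4a4b is known from T and NK cells, and Ms4a4c, Ms4a6c and Ms4a6d are known from monocytes and macrophages.

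The cells were CD45+ immune cells (CD45 marks leukocytes) sorted from liver pieces of Balb/c mice that had received an intracardiac injection of 4T07 cells (written 4TO7 in the labels), a mouse mammary tumor line, and were read by 10x Genomics 3' single-cell RNA-seq. The injected cells were either Ctrl, which carried a scrambled hairpin, or Tim3-KD, which carried a short hairpin RNA against the immune checkpoint gene Tim3 (Havcr2). The knockdown was in the tumor cells, so the sorted host cells hold no check of it. The labels give no age of the mice. Each kind was sampled as tumor-free adjacent tissue (AT) on day 3, micrometastasis on day 3 and macrometastasis on day 12, which gave 6 libraries and 23008 cells. The cells of 2 mice were pooled for each library, and each group had 1 library. No test of 1 group against another was therefore possible within a site. A comparison with the 3 sites as pairs is given once below. Every interval below is a 95% interval that covers counting error only, not the spread between mice.

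Libraries held 542 to 5502 cells, with median depths of 6300 to 10248 UMIs (unique molecular identifiers, one per captured transcript) per cell. Clustering without any Ms4a gene gave 27 clusters, of which 25 took the name of 1 of 11 classes by marker genes and are written "-like". The members therefore had no part in drawing the classes. The AT Tim3-KD library stood apart, with 542 cells, of which 19 were mature neutrophil-like, 21 monocyte-like and none neutrophil precursor-like or progenitor-like, so each AT ratio below rests on it. B-like cells were 12.7% of cells in micrometastasis Ctrl and 1.38% in micrometastasis Tim3-KD. Of 22948 barcode sequences, 59 occurred in more than 1 library (119 cells), 16 of them in both libraries of a site.

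The 5 members lie in 1 stretch of 355175 bases on chromosome 19 (GRCm38, GENCODE vM21), among 19 annotated Ms4a genes, 11 of which lie from the first to the last member. In map order they are Ms4a1 at chr19:11249675-11266241 on the minus strand, Ms4a4c at chr19:11404770-11427246, Ms4a4b at chr19:11443553-11467055 and Ms4a6c at chr19:11469366-11482192 on the plus strand, and Ms4a6d at chr19:11586604-11604849 on the minus strand. Neighbors on this map were expressed in different cells, as the values below show for the adjacent Ms4a4c, Ms4a4b and Ms4a6c. The promoters of these 3 genes and of Ms4a6b, the gene after Ms4a6c, are shown because each pair of close relatives differs in the cells that express it. Each is the 250 bases before the RefSeq start of the gene on GRCm38.p6, plus strand, read 5′ to 3′: chr19:11443308-11443557 for Ms4a4b, chr19:11407411-11407660 for Ms4a4c, chr19:11469118-11469367 for Ms4a6c and chr19:11518309-11518558 for Ms4a6b. Capitals mark matches to the motifs named after the sequences.
Ms4a4b: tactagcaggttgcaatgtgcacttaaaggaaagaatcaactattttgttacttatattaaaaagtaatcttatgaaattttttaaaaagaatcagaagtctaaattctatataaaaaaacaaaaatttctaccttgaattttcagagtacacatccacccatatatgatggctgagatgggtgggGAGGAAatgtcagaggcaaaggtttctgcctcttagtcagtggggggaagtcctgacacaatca
Ms4a4c: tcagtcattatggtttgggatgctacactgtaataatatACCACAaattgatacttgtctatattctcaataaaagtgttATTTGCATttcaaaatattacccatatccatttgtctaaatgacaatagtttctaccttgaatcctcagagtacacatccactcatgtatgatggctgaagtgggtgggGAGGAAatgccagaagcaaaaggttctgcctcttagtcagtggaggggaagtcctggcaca
Ms4a6c: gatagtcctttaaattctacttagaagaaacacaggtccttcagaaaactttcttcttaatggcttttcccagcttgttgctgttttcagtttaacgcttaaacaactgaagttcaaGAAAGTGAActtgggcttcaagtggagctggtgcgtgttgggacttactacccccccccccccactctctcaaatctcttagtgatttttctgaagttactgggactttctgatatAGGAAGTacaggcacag
Ms4a6b: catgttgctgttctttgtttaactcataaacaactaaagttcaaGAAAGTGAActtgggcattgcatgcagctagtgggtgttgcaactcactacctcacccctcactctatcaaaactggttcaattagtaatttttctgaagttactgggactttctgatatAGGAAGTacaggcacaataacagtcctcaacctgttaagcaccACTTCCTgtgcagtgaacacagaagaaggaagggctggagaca

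Ms4a1 and Ms4a6d had no entry in the promoter table. The Ms4a4b and Ms4a4c promoters were identical at 71.6% of 243 aligned bases, with a longest shared run of 20 bases, and those of Ms4a6b and Ms4a6c at 85.1% of 175 aligned bases, with a shared run of 48 bases. Matches to 5 motifs were sought on both strands, and shares refer to all 32851 promoters of this length in the table. The PU.1 core GAGGAA, present in 23.3% of them, occurred once in Ms4a4b and once in Ms4a4c. Ms4a4c also held the octamer ATTTGCAT (1.60% of promoters) and the RUNX motif TGTGGT, read as ACCACA on this strand (14.05%), neither of which was found in Ms4a4b. The ETS motif AGGAAGT (7.69%, which overlaps GAGGAA in letters) occurred once in Ms4a6c and 2 times in Ms4a6b. The IRF motif GAAANNGAA (7.13%) occurred once in each of Ms4a6c and Ms4a6b, as the same 9 letters GAAAGTGAA. These are matches of letters and not sites of binding. The RefSeq starts differ from the gene bounds of GENCODE, most for Ms4a4c.

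The levels below are CPM, the UMIs of a gene per 1000000 UMIs of the same cells, and they compare cells for 1 gene, not 1 gene with another. In each of the 6 libraries Ms4a1 was highest in B-like cells, Ms4a4b in T-like or NK or ILC1-like cells, and Ms4a4c, Ms4a6c and Ms4a6d in monocyte-like cells, among the named classes of 20 or more cells.

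**Figure D1:**
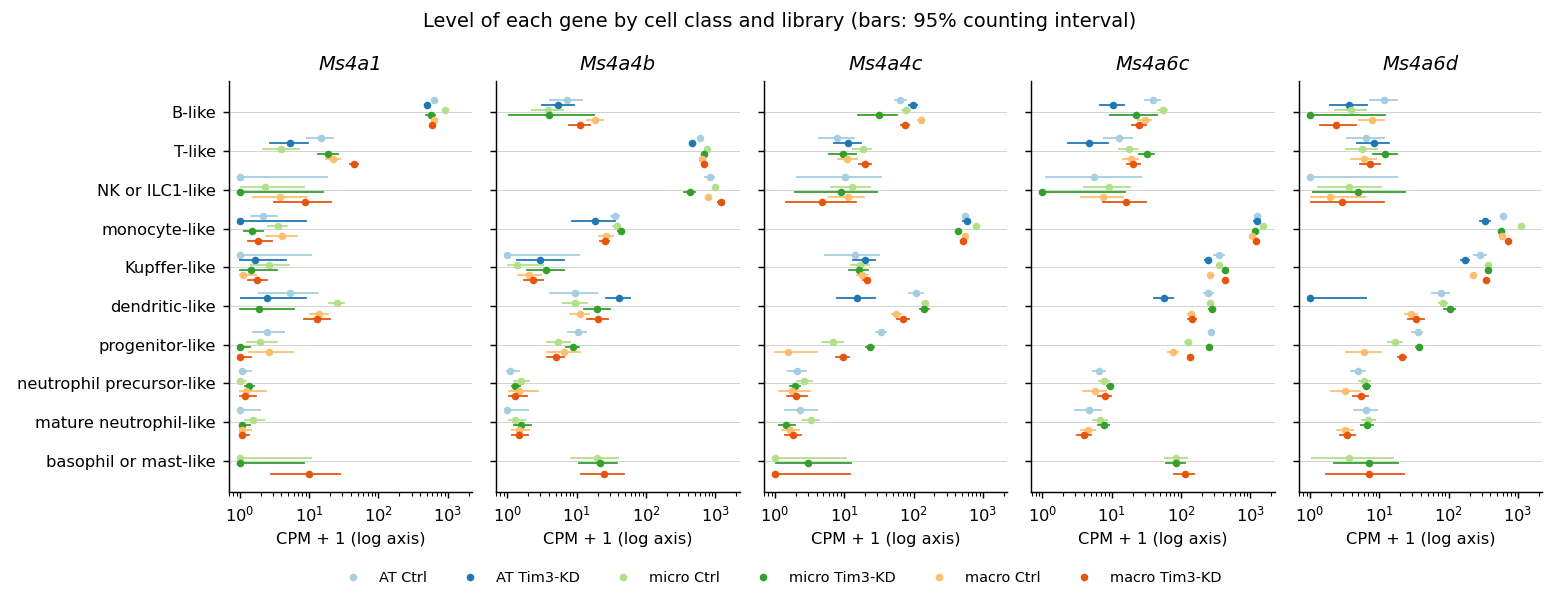
Level of each member (x axis, CPM + 1 on a log axis) in each cell class (y axis) of 20 or more cells, with 1 point per library in its own color and bars for the 95% counting interval. The points of Ms4a1 stand apart only in B-like cells, those of Ms4a4b in T-like and NK or ILC1-like cells, and those of Ms4a4c, Ms4a6c and Ms4a6d are highest in monocyte-like cells, with Kupffer-like cells next for Ms4a6c and Ms4a6d in all 6 libraries.

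Ms4a1 was close to confined to the B-like cells. Its level there was 638 CPM in AT Ctrl, 497 in AT Tim3-KD, 901 in micrometastasis Ctrl, 568 in micrometastasis Tim3-KD, 629 in macrometastasis Ctrl and 591 in macrometastasis Tim3-KD. These levels rest on 186 to 2823 UMIs per library. B-like cells held 76.2 to 99.2% of its UMIs in a library, with the lowest share in micrometastasis Tim3-KD, the library with 71 B-like cells. The highest level was in micrometastasis Ctrl and the lowest in AT Tim3-KD. After each cell was thinned to 1500 UMIs, so that depth was equal, Ms4a1 was detected in 48.3% (42.0 to 54.5), 49.5% (42.3 to 56.7), 63.3% (59.5 to 67.0), 46.5% (34.5 to 58.7), 53.0% (48.9 to 57.0) and 47.7% (43.4 to 52.1) of B-like cells in the same order of libraries. In mature neutrophil-like cells, which should lack it, the share was at most 0.0671% in the libraries with 20 or more of them. Median depths were 3484 to 9590 UMIs in B-like and 5007 to 5863 in mature neutrophil-like cells, no cell was left out by the thinning, and without it the shares were 74.7 to 91.8% of B-like and at most 0.335% of mature neutrophil-like cells.

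The B-like cells formed 2 clusters. The larger one had Ighd and Fcmr, genes of mature B cells, among its leading genes and held Ms4a1 at 630.1 CPM over all libraries. The smaller one, of 293 cells, was led by Vpreb3, Iglc1 and Ly6d, with Vpreb3 a gene of immature B cells, and held 897 CPM. The smaller cluster was 23.2% of B-like cells in AT Ctrl and 21.7% in micrometastasis Ctrl, against 5.10% and 2.82% in the Tim3-KD libraries of these sites. At macrometastasis its share was 3.80% in Ctrl and 10.8% in Tim3-KD. The Ms4a1 level of the smaller cluster differed between libraries, with 454 CPM (AT Ctrl), 1137 (micrometastasis Ctrl), 1719 (macrometastasis Ctrl, 23 cells) and 709 (macrometastasis Tim3-KD).

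Outside the B-like cells, Ms4a1 was seen in the dendritic-like cluster led by Siglech, a gene of plasmacytoid dendritic cells, at 101 CPM in micrometastasis Ctrl, 56.4 and 57.9 in macrometastasis Ctrl and Tim3-KD, and 0 UMIs in the 35 cells of micrometastasis Tim3-KD. Few cells carried it, as in micrometastasis Ctrl 13 of 218 dendritic-like cells had a UMI. Ms4a1 was also seen in T-like cells, at 2.97 to 43.6 CPM. Of the 329 Ms4a1 UMIs in T-like cells, 93.6% lay in 1 cluster of 137 cells when T and NK cells were clustered among themselves. In that cluster 97.8% of cells had a UMI of Cd79a, part of the B cell receptor, and 24.8% had a doublet score over 0.15. In each of the other clusters of 20 or more T and NK cells, Ms4a1 was detected in at most 2.08% of cells. The part of doublets in these UMIs was not tested.

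Ms4a4b marked the T and NK lineages. Its level in T-like cells was 605 CPM in AT Ctrl, 464 in AT Tim3-KD, 759 in micrometastasis Ctrl, 677 in micrometastasis Tim3-KD, 639 in macrometastasis Ctrl and 684 in macrometastasis Tim3-KD. These levels rest on 762 to 2966 UMIs per library. In NK or ILC1-like cells it was 835 CPM in AT Ctrl, 983 in micrometastasis Ctrl, 426 in micrometastasis Tim3-KD, 772 in macrometastasis Ctrl and 1185 in macrometastasis Tim3-KD, where AT Ctrl had 28 and micrometastasis Tim3-KD 35 such cells, and AT Tim3-KD had 12 and is left out. NK or ILC1-like cells were above T-like cells in 4 of these 5 libraries and below them in micrometastasis Tim3-KD, each time by more than the counting intervals. The classes do not part these lineages fully. In AT Ctrl the Gzma and Ncr1, Itga1 and Cd160, and Klra7 clusters described below had 21, 24 and 6 cells, more than the 28 of this class. Some cells with NK or ILC1 genes were thus counted as T-like. At 1500 UMIs per cell, Ms4a4b was detected in 42.4 to 56.6% of T-like cells, 2.56 to 7.503% of monocyte-like cells and at most 0.121% of mature neutrophil-like cells.

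Within the T and NK cells, Ms4a4b was graded. Over all libraries it was highest in the cluster led by the NK cell genes Gzma, Prf1, Ncr1 and Eomes, called Gzma and Ncr1 here, at 1039 (95% interval 989.5 to 1089) CPM, and in the cluster led by Cd8a, Cd8b1 and Havcr2 (the gene of Tim3 itself, here in host cells), at 1017 (95% interval 978 to 1057) CPM, whose intervals overlap. Their order turned between libraries, with 1037 and 1449.6 CPM in micrometastasis Ctrl and 1437 and 883 in macrometastasis Tim3-KD. The cluster with Cxcr6 and Itga1 held 747 CPM, the Klra7 cluster of 48 cells 735, the cluster with the T cell regulatory genes Ctla4 and Tnfrsf4 699 and the cycling cluster 678. Lower levels were found in the Itga1 and Cd160 cluster, at 526 (95% interval 473 to 582) CPM, the cluster with Cd4 and the naive T cell genes Lef1, Ccr7 and Tcf7, at 505 (95% interval 478 to 534), and the cluster with these naive genes and Cd8b1, at 438 (95% interval 404 to 474). The lowest level was in the cluster with Blk and Trdc of gamma-delta T cells, at 68.8 CPM over 64 cells, among clusters of 20 or more cells that did not carry B cell genes. This order is over all libraries and did not hold in each. In micrometastasis Tim3-KD the Cxcr6 and Itga1 cluster was at 436 CPM, below the Ctla4 and Tnfrsf4 cluster at 671, the cycling cluster at 638 and the Lef1 and Cd4 cluster at 521 (52 UMIs).

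This order was only partly that of cytotoxic genes. The summed CPM of 8 effector lymphocyte genes (Gzma, Gzmb, Prf1, Ifng, Nkg7, Ccl5, Ccl4 and Xcl1) was 53183 in the Gzma and Ncr1 cluster, 30197 in the Itga1 and Cd160 cluster, 18023 in the Cd8a and Havcr2 cluster and 5127 in the Cxcr6 and Itga1 cluster. The Itga1 and Cd160 cluster thus had more of these transcripts than the Cd8a and Havcr2 cluster and less Ms4a4b. The summed CPM of 7 naive T cell genes was 2769.9 in the Lef1 and Cd4 cluster and 2167 in the Lef1 and Cd8b1 cluster, both among the lower levels of Ms4a4b.

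**Figure D2:**
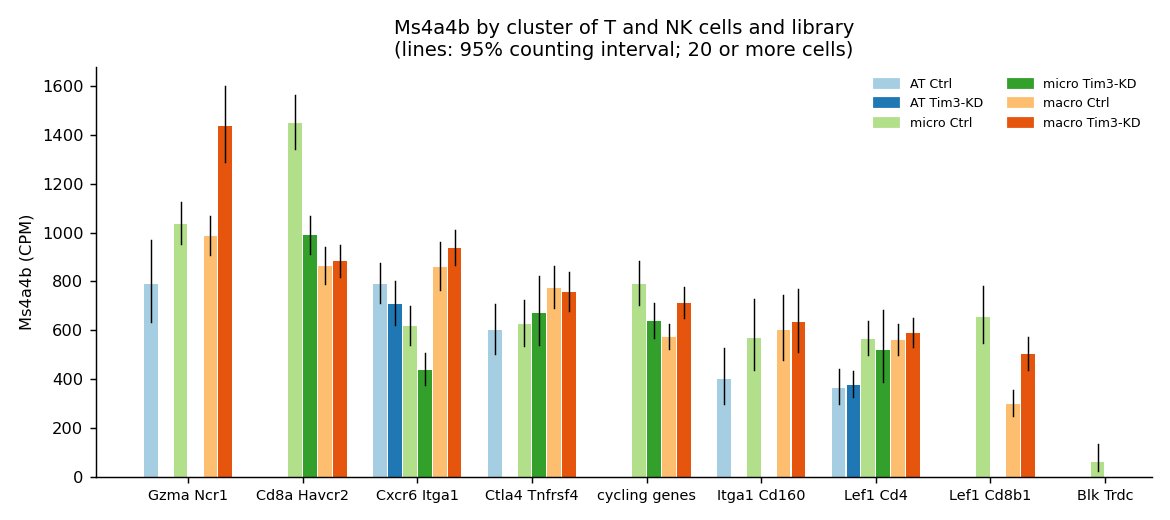
Ms4a4b level (y axis, CPM) in 9 clusters of T and NK cells (x axis, named by leading genes), with 1 bar per library of 20 or more cells and lines for the 95% counting interval. Bars of the Lef1 and Cd4 cluster lie at or below 589 CPM in every library, and the largest gap between the Ctrl and Tim3-KD bars of micrometastasis is in the Cd8a and Havcr2 cluster, 1449.6 CPM in Ctrl and 988 in Tim3-KD.

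Ms4a4b was also present at a low level in monocyte-like cells, at 17.4 to 42.3 CPM, while Kupffer-like cells had at most 2.61. The 19 T cell marker genes common to the matrices summed to 8.71 to 49.7 CPM in monocyte-like cells, against 5751 to 8119 in T-like cells, and none of the 19 was at 0, with Cd3e at 1.08 and Cd3g at 4.01 CPM over all libraries. Relative to T-like cells, the monocyte-like level was thus higher for Ms4a4b than for this list. Ms4a4b and Ms4a4c share sequence: of 451 stretches of 50 bases in the last 500 bases of the longest Ms4a4c transcript, the part a 3' library reads, 11.8% also occur in Ms4a4b. For Ms4a6c the same share was 10.4%, with Ms4a6b, and it was 0 for Ms4a1, Ms4a4b and Ms4a6d. The matrices hold joined features for some similar genes, such as Ly6c1 with Ly6c2, but none for a member. They hold selected genes, so whether reads that fit both copies of a member went to a joined feature outside them is not given in the sources used here. The low level of Ms4a4b in monocyte-like cells and of Ms4a4c in T-like cells is thus uncertain.

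Among the named classes, the other 3 members were highest in monocyte-like cells. Ms4a4c stood in these cells at 541 CPM in AT Ctrl, 583 in AT Tim3-KD, 805 in micrometastasis Ctrl, 430.3 in micrometastasis Tim3-KD, 546 in macrometastasis Ctrl and 507 in macrometastasis Tim3-KD. Ms4a6c stood at 1232 CPM in AT Ctrl, 1241 in AT Tim3-KD, 1529.7 in micrometastasis Ctrl, 1179 in micrometastasis Tim3-KD, 1064 in macrometastasis Ctrl and 1209 in macrometastasis Tim3-KD. Ms4a6d stood at 603 CPM in AT Ctrl, 335 in AT Tim3-KD, 1112 in micrometastasis Ctrl, 561 in micrometastasis Tim3-KD, 595 in macrometastasis Ctrl and 722 in macrometastasis Tim3-KD. The levels rest on 268 to 6959 UMIs of Ms4a4c per library, 570 to 13229 UMIs of Ms4a6c and 154 to 9618 UMIs of Ms4a6d. All 3 were highest in micrometastasis Ctrl, and Ms4a6d was lowest in AT Tim3-KD, which had 21 of these cells against 243 to 733 elsewhere.

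The 3 genes differed in where else they were found. Ms4a4c was next in dendritic-like cells in 3 libraries and in B-like cells in AT Tim3-KD and macrometastasis Ctrl and Tim3-KD, with 14.5 to 147 CPM in dendritic-like and 30.5 to 127 CPM in B-like cells. Among the B cells it was in the Ighd and Fcmr cluster, at 97.1 CPM, more than in the Vpreb3 and Iglc1 cluster, at 18.9, the opposite of the pooled order for Ms4a1. In AT Ctrl both genes were higher in the Ighd and Fcmr cluster, with 691 and 454 CPM of Ms4a1 and 72.4 and 32.6 of Ms4a4c. In AT Tim3-KD, where monocyte-like cells were few, B-like cells held 40.4% of all Ms4a4c UMIs. Kupffer-like cells, the resident macrophages of the liver, had 13.3 to 20.0 CPM of Ms4a4c.

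Ms4a6c and Ms4a6d were both present in Kupffer-like cells. The Ms4a6c level there was 351 CPM in AT Ctrl, 243 in AT Tim3-KD, 356 in micrometastasis Ctrl, 427 in micrometastasis Tim3-KD, 261 in macrometastasis Ctrl and 424 in macrometastasis Tim3-KD, and that of Ms4a6d was 285 CPM in AT Ctrl, 172 in AT Tim3-KD, 365 in micrometastasis Ctrl, 365 in micrometastasis Tim3-KD, 224 in macrometastasis Ctrl and 349.8 in macrometastasis Tim3-KD. Ms4a6c extended to further classes in which Ms4a6d was low. In progenitor-like cells Ms4a6c was 265 CPM in AT Ctrl, 123 in micrometastasis Ctrl, 252 in micrometastasis Tim3-KD, 75.7 in macrometastasis Ctrl and 135 in macrometastasis Tim3-KD, and Ms4a6d was 5.05 to 36.3 CPM. In basophil or mast-like cells of the 3 libraries with 20 or more of them, Ms4a6c was 83.6 to 112 CPM and Ms4a6d 2.63 to 6.12. Ms4a6b, with which Ms4a6c shares sequence as given above, was at 110 CPM in these cells at the metastatic sites. The Ms4a6c level there is thus uncertain. Neutrophils of either stage had at most 8.36 CPM of any of the 3 genes as whole classes. By cluster, the highest values were Ms4a6c at 19.2 CPM in the precursor cluster with Elane and Mpo (233 UMIs) and 15.2 in the mature cluster with Steap4 and Acod1 (59 UMIs), both in micrometastasis Tim3-KD.

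**Figure D3:**
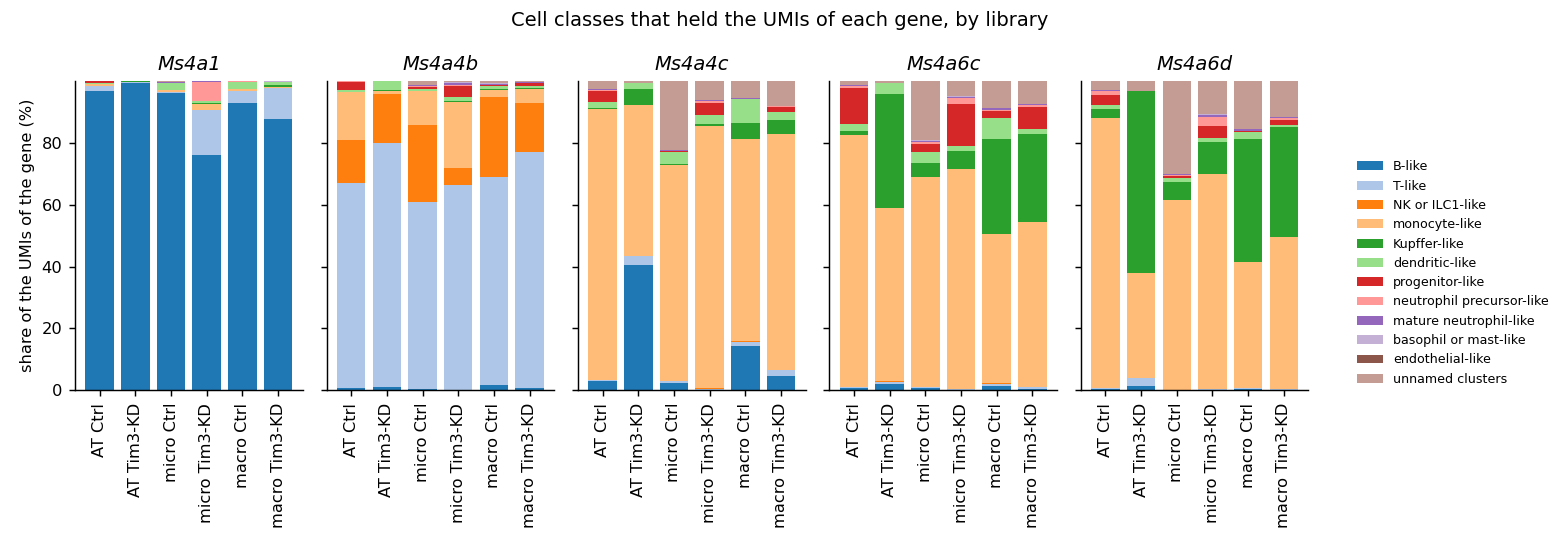
Share of the UMIs of each member (y axis, percent) held by each cell class (colors), with 1 bar per library (x axis). B-like cells fill 76.2 to 99.2% of the Ms4a1 bars, and the Ms4a6d bars are split between monocyte-like, Kupffer-like and unnamed clusters, with Kupffer-like cells at 58.6% in AT Tim3-KD and 39.7% in macrometastasis Ctrl.

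The monocyte-like cells formed 4 clusters, and the members differed between them. The largest, led by Ccr2, the receptor that draws inflammatory monocytes from blood, with Vcan, Fn1 and Ly6c2, was highest for all 3 genes over all libraries, at 822 CPM of Ms4a4c, 1553 of Ms4a6c and 1105 of Ms4a6d. The second, led by F13a1 and Ly6c2 and with the cell cycle gene Pclaf among its leading genes, held 321, 1014 and 352 CPM, and had a median of 25107 UMIs per cell against 10287 in the Ccr2 cluster. The cluster led by Thbs1 and Vcan held 63.7, 603 and 219 CPM, and the cluster with Adgre4 and Treml4, genes of patrolling monocytes, held 218, 671 and 332. An unnamed cluster of 807 cells led by Trem2, Spp1 and Pf4, genes of tissue macrophages, was left out of the ranking of classes and held 336 CPM of Ms4a4c, 682 of Ms4a6c and 789.8 of Ms4a6d. In micrometastasis Tim3-KD its Ms4a6d level of 769 CPM (132 cells) was above the 561 CPM of the monocyte-like class.

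**Figure D4:**
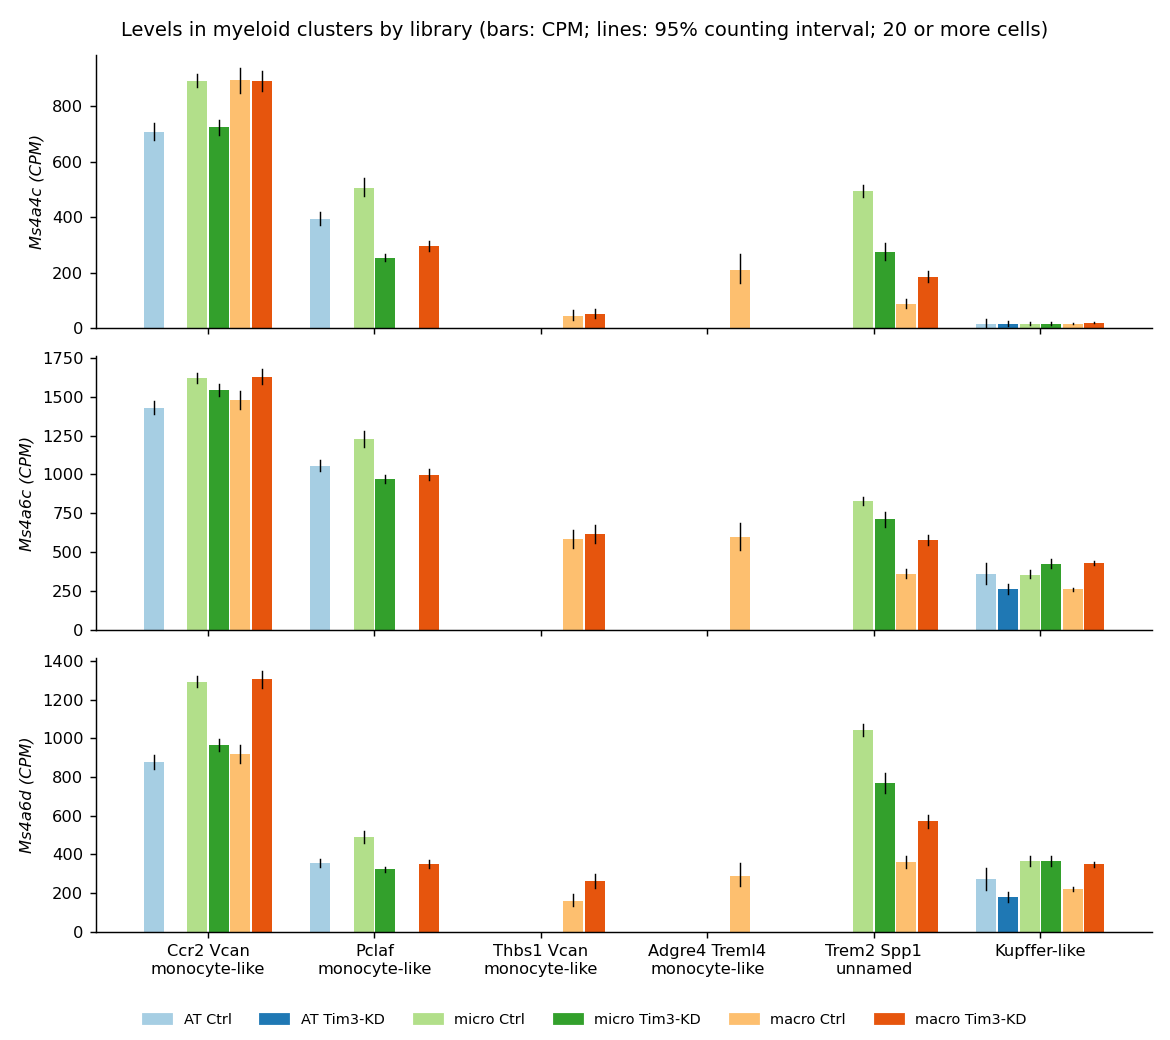
Levels of Ms4a4c, Ms4a6c and Ms4a6d (y axes, CPM, 1 panel each) in 6 myeloid clusters (x axis), with 1 bar per library of 20 or more cells and lines for the 95% counting interval. The Ccr2 cluster is highest in all 3 panels, and the Trem2 and Spp1 cluster is higher at micrometastasis than at macrometastasis in each.

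The 3 genes were often found in the same cells. At 1500 UMIs per cell, all 3 were detected in 31.7%, 19.0%, 49.6%, 31.1%, 23.4% and 32.6% of monocyte-like cells, in the order AT, micrometastasis and macrometastasis with Ctrl before Tim3-KD. None of the 3 was detected in 1.56 to 16.5% of them. Over all libraries, all 3 were detected in 47.4% of cells of the Ccr2 cluster, 19.6% of the Trem2 and Spp1 cluster, 12.8% of the F13a1 and Pclaf cluster, 7.25% of the Adgre4 and Treml4 cluster and 0.746% of the Thbs1 and Vcan cluster. In Kupffer-like cells it was at most 0.749%. The shares with Ms4a6c were 72.2 to 88.1% of monocyte-like and 0 to 4.31% of B-like cells, and with Ms4a6d 38.1 to 76.5% and 0 to 1.16%. In mature neutrophil-like cells, the class taken as background, they were 0.347 to 1.43% for Ms4a6c and 0.248 to 1.48% for Ms4a6d at median depths of 5007 to 5863 UMIs before thinning, against 3484 to 9590 in B-like cells. By CPM, Ms4a6c in B-like cells was above that class in each library with 20 or more of both, at 21.4 to 53.9. This level is uncertain too, since Ms4a6b, which shares sequence with it, was at 74.3 CPM in B-like cells of the metastatic sites. Ms4a4c was detected in 41.8 to 67.8% of monocyte-like and 5.63 to 17.8% of B-like cells, and in at most 0.335% of mature neutrophil-like cells. Without thinning, the shares were 74.4 to 97.9% of monocyte-like cells for Ms4a4c, 97.1% or more for Ms4a6c and 82.1 to 98.7% for Ms4a6d, at median depths of 9927 to 23594 UMIs.

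The ratio of Tim3-KD to Ctrl asks how a member differed in the host cells when the tumor cells carried the Tim3 knockdown. With 1 library on each side, the ratio compares 2 libraries. As a background, the share of genes at least 1.5-fold higher or lower, among genes of 100 or more UMIs over both libraries, was 38.1% in B-like, 44.7% in T-like and 52.9% in monocyte-like cells at AT. It was 31.4%, 22.5% and 31.2% at micrometastasis, and 19.3%, 12.3% and 41.3% at macrometastasis. Differences of this size were thus common among all genes in every one of these comparisons. With the 3 sites taken as pairs, chosen after the data were seen, the mean log2 ratio in the lineage class was -0.37 ± 0.29 for Ms4a1, -0.15 ± 0.24 for Ms4a4b, -0.30 ± 0.53 for Ms4a4c, -0.0602 ± 0.29 for Ms4a6c and -0.52 ± 0.69 for Ms4a6d (SD over 3 sites). The Ms4a1 ratio was below 1 at all 3 sites, though relative to the trimmed mean over genes it turned to 0.0803 at macrometastasis and with B cells called one by one to 1.10 at AT (log2 scale). The exact two-sided permutation test gave p = 0.25 for Ms4a1, the smallest value 3 pairs allow, and p = 0.5 to 1 for the others. A model across genes with site as a term was not run.

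Ms4a1 in B-like cells had a Tim3-KD to Ctrl ratio of 0.780 (0.717 to 0.848) at AT, 0.631 (0.541 to 0.732) at micrometastasis and 0.939 (0.878 to 1.00) at macrometastasis. The micrometastasis ratio is past 1.5-fold and rests on 186 UMIs of 71 Tim3-KD cells. Within the Ighd and Fcmr cluster it was 0.693 (0.634 to 0.757), 0.675 (0.575 to 0.787) and 0.965 (0.898 to 1.04) in the same order, on the same side of 1 as in the whole class. In the Vpreb3 and Iglc1 cluster at macrometastasis it was 0.412 (0.334 to 0.510), from 23 and 57 cells. The median gene of B-like cells had a log2 ratio of -0.10, -0.13 and -0.16 at the 3 sites. Ms4a1 at macrometastasis turned from -0.09 to 0.0803 on the log2 scale relative to all genes (a trimmed mean), and at AT from -0.36 to 1.10 with B cells called one by one from lineage genes. The same calls put it further below 0 at both metastatic sites, past 1.5-fold, as given with the processing. Of the B cells called so at micrometastasis, 68.4% in Ctrl and 14.8% in Tim3-KD lay in B-like clusters.

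Ms4a4b in T-like cells had ratios of 0.766 (0.694 to 0.845), 0.892 (0.830 to 0.958) and 1.07 (1.01 to 1.13), none of them past 1.5-fold. The T-like cells were 4 clusters whose shares differed between the libraries. At micrometastasis the Lef1 and Il7r cluster made up 33.4% of the Ctrl T-like cells and 11.8% of those of Tim3-KD, and the Cd8b1 and Ccl5 cluster, which had the highest Ms4a4b of the 4 at this site, 21.4% and 38.8%. Within each of the 4 the ratio was further below 1 than in the class, at 0.860 (0.675 to 1.09) for Lef1 and Il7r, 0.704 (0.590 to 0.838) for Xcl1 and Cxcr6, 0.791 (0.719 to 0.870) for Cd8b1 and Ccl5, and 0.692 (0.547 to 0.872) for Ctla4 and Tnfrsf4. At macrometastasis these ratios were 1.23 (1.09 to 1.38), 1.09 (0.970 to 1.22), 1.09 (0.993 to 1.21) and 0.762 (0.669 to 0.868), so the last cluster was on the other side of 1 from the class. At AT the median gene of T-like cells had a log2 ratio of -0.32, and relative to all genes Ms4a4b was at -0.0615, while with T cells called one by one it turned to 1.97. Of the T cells called so at AT, 40.1% in Ctrl and 84.3% in Tim3-KD lay in T-like clusters, so that value compares calls of unequal purity. At micrometastasis the same calls put Ms4a4b further below 1, past 1.5-fold, as given with the processing. NK or ILC1-like cells differed more, with 983 and 426 CPM, a ratio of 0.434 (0.351 to 0.532) at micrometastasis and 772 and 1185 CPM, a ratio of 1.53 (1.38 to 1.71) at macrometastasis, where 35 and 72 Tim3-KD cells stood against 175 and 184 Ctrl cells. The makeup of the NK cells differed too. At micrometastasis the Gzma and Ncr1 cluster had 153 cells in Ctrl and 8 in Tim3-KD, and the Klra7 cluster 12 and 18, so the class ratio there compares different mixes of cells, and the part of this in the ratio was not tested. Among the T and NK clusters, the Cd8a and Havcr2 cluster had 1449.6 and 988 CPM, a ratio of 0.682 (0.611 to 0.761) at micrometastasis and 1.02 (0.911 to 1.15) at macrometastasis. At macrometastasis the Gzma and Ncr1 cluster had 1.46 (1.27 to 1.67) and the Lef1 and Cd8b1 cluster 1.68 (1.34 to 2.10). The Lef1 and Cd4 cluster stayed between 0.923 (0.671 to 1.25) at micrometastasis and 1.05 (0.900 to 1.23) at macrometastasis, with 1.04 (0.815 to 1.32) at AT.

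Gene lists of T cell state were followed in the same T-like cells. Of 7 naive T cell genes with 100 or more UMIs at micrometastasis, 6 were at least 1.5-fold lower and 0 higher in Tim3-KD, with a median log2 ratio of -1.02 against -0.07 over all genes. Of 8 at macrometastasis, 0 were past 1.5-fold, with a median of -0.06 against 0.07, and at AT 1 of 8 was higher, with a median of 0.41. Effector lymphocyte genes at micrometastasis had 2 of 8 higher and 1 lower, with a median of 0.36, while at AT 1 was higher and 5 lower, with a median of -0.94. At macrometastasis 0 of 8 were past 1.5-fold, with a median of 0.09. These lists describe the mix of T-like cells beside Ms4a4b, and their part in its ratios was not tested.

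In monocyte-like cells, Ms4a4c had ratios of 1.08 (0.948 to 1.22) at AT, 0.535 (0.515 to 0.555) at micrometastasis and 0.928 (0.875 to 0.985) at macrometastasis. Ms4a6c had 1.01 (0.924 to 1.10), 0.771 (0.752 to 0.790) and 1.14 (1.09 to 1.18). Ms4a6d had 0.556 (0.470 to 0.654), 0.505 (0.488 to 0.522) and 1.21 (1.15 to 1.28). At micrometastasis all 3 were lower in Tim3-KD, 2 of them (Ms4a4c and Ms4a6d) by 1.5-fold or more. At AT, 1 of the 3 (Ms4a6d) was lower by 1.5-fold or more, and at macrometastasis none was past it. With monocytes called one by one from lineage genes, Ms4a4c at AT and Ms4a6c at micrometastasis were also lower by that fold, and Ms4a6d at macrometastasis was higher by it. Of the monocytes called so, 35.1 to 48.8% lay in monocyte-like clusters. The median gene of monocyte-like cells had a log2 ratio of -0.02 at AT, -0.16 at micrometastasis and -0.28 at macrometastasis. Relative to all genes, Ms4a4c at macrometastasis turned from -0.11 to 0.15 on the log2 scale, and it was also above 0 under 3 other settings, with 0.14 to 0.31.

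The makeup of the monocyte-like cells also differed between Ctrl and Tim3-KD. The F13a1 and Pclaf cluster, lower in all 3 genes than the Ccr2 cluster, was 11.03% of monocyte-like cells in micrometastasis Ctrl and 37.0% in Tim3-KD, 3.30% and 25.4% at macrometastasis, and 28.4% and 0% at AT. The Adgre4 and Treml4 cluster was 18.3% in macrometastasis Ctrl (50 cells) and 1.23% in Tim3-KD (5 cells), and 2.47% and 19.0% at AT (6 and 4 cells). Within the Ccr2 cluster at micrometastasis, Ms4a4c was 892 and 724 CPM, a ratio of 0.812 (0.775 to 0.849), Ms4a6c had 0.953 (0.923 to 0.984) and Ms4a6d 0.746 (0.717 to 0.775). All 3 were thus nearer to 1 there than in the whole class. Within the F13a1 and Pclaf cluster Ms4a4c was 507 and 255 CPM, a ratio of 0.502 (0.463 to 0.544), Ms4a6c had 0.790 (0.753 to 0.829) and Ms4a6d 0.656 (0.607 to 0.710). At macrometastasis the Ccr2 cluster had 0.997 (0.935 to 1.06) for Ms4a4c, 1.10 (1.05 to 1.16) for Ms4a6c and 1.42 (1.34 to 1.51) for Ms4a6d, whose levels were 918 and 1305 CPM. AT Tim3-KD had 17 cells of this cluster, too few for a ratio.

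The unnamed Trem2 and Spp1 cluster was on opposite sides of 1 at the metastatic sites. At micrometastasis its Ms4a4c was 494 and 277 CPM, a ratio of 0.560 (0.497 to 0.630), its Ms4a6c had 0.857 (0.793 to 0.924) and its Ms4a6d 0.737 (0.685 to 0.792). At macrometastasis the same genes were higher in Tim3-KD, with 88.3 and 186 CPM, a ratio of 2.11 (1.73 to 2.59) for Ms4a4c, 1.59 (1.44 to 1.76) for Ms4a6c and 1.59 (1.43 to 1.76) for Ms4a6d. This cluster held 412 and 132 cells at micrometastasis and 105 and 147 at macrometastasis. Its makeup differed between these libraries. At resolution 2 a cluster led by Sdc4, Ccl24, Spp1 and Trem2 had 438, 70, 40 and 58 cells in the same order, and a cluster led by Pf4, Alb and Cxcl1 had 5, 67, 124 and 129, so the ratios compare different mixes of cells.

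In Kupffer-like cells Ms4a6c had ratios of 0.693 (0.567 to 0.852), 1.20 (1.09 to 1.32) and 1.62 (1.54 to 1.71), and Ms4a6d 0.604 (0.481 to 0.764), 0.999 (0.908 to 1.10) and 1.56 (1.47 to 1.65), at AT, micrometastasis and macrometastasis. Of all genes in Kupffer-like cells, 29.9%, 14.2% and 16.5% were at least 1.5-fold higher or lower at the same sites. The AT Ctrl library had 31 Kupffer-like cells. The class was 2 clusters of differing shares. The one with Igf1 and Sdc3 among its leading genes made up 29.0% and 52.8% of Ctrl and Tim3-KD cells at AT, 22.3% and 1.56% at micrometastasis, and 8.08% and 19.4% at macrometastasis. Within it, Ms4a6c had 1.41 (1.08 to 1.86) and Ms4a6d 1.26 (0.973 to 1.66) at macrometastasis, the latter with 1 in its interval. In the larger cluster, with C1qa and C6, Ms4a6c had 0.726 (0.585 to 0.905), 1.20 (1.09 to 1.32) and 1.64 (1.56 to 1.73), and Ms4a6d 0.664 (0.516 to 0.861), 0.992 (0.900 to 1.09) and 1.57 (1.48 to 1.67), close to the class. In dendritic-like cells of both metastatic sites the ratios of the 3 genes lay between 0.966 and 1.26, and each interval held 1. Within the Siglech cluster at macrometastasis, Ms4a6c had 2.40 (1.25 to 4.69), from 18 and 24 UMIs, and in the other dendritic-like cluster Ms4a4c had 1.32 (1.02 to 1.69). At AT, with 41 and 26 cells, Ms4a4c had 0.134 (0.0618 to 0.260), Ms4a6c 0.225 (0.154 to 0.322) and Ms4a6d 54 UMIs in Ctrl against 0 in Tim3-KD. These AT ratios compare different mixes of cells, since the Siglech cluster, low in all 3 genes (24.8 CPM of Ms4a4c, 47.0 of Ms4a6c and 1.81 of Ms4a6d over all libraries, against 110.2, 226 and 66.4 in the other dendritic-like cluster), made up 34.1% of the Ctrl and 65.4% of the Tim3-KD cells. With 9 Tim3-KD cells in the other cluster, no ratio within clusters was made at AT.

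**Figure D5:**
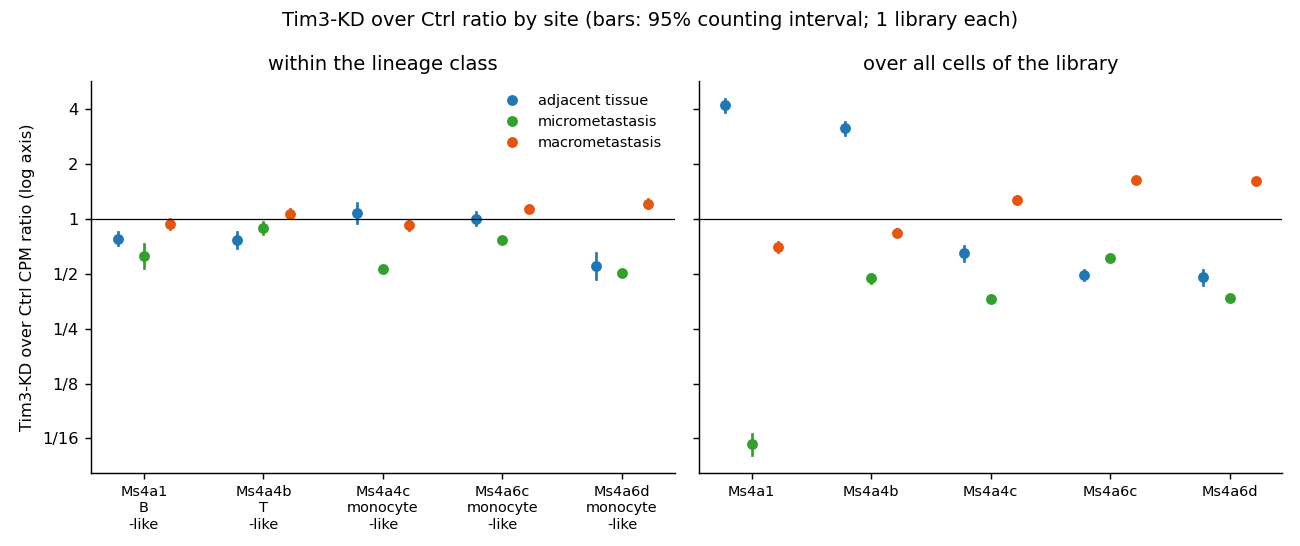
Tim3-KD over Ctrl ratio (y axis, log axis) of each member within its lineage class (left) and over all cells of the library (right), with 1 point per site in its own color and bars for the 95% counting interval. In the right panel Ms4a1 spans from 0.0581 at micrometastasis to 4.21 at AT, while in the left panel its ratios lie between 0.631 and 0.939.

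Interferon-stimulated genes, which respond to interferon in most cells, were followed beside the monocyte members as a list of 30. In monocyte-like cells at micrometastasis, of 21 with 100 or more UMIs, 14 were at least 1.5-fold lower and 0 higher in Tim3-KD, with a median log2 ratio of -0.74 against -0.16 over all genes. At macrometastasis 14 of 20 were lower and 0 higher, with a median of -0.82 against -0.28. At AT 8 of 12 were higher and 1 lower, with a median of 0.90 against -0.02. Of all genes of the class, 438 of 1956 were lower and 172 higher by that fold at micrometastasis. At macrometastasis 376 of 1281 were lower and 153 higher, and at AT 589 of 1957 were lower and 447 higher. Ms4a6c and Ms4a6d were on the other side of 1 from this list at macrometastasis, and so was Ms4a6d at AT, with 0.556 (0.470 to 0.654). The summed CPM of 20 of these genes was 1131, 1277, 1070.1, 2244 and 1603 in the Ccr2 cluster of AT Ctrl, micrometastasis Ctrl and Tim3-KD, and macrometastasis Ctrl and Tim3-KD, and 271 to 341 in the F13a1 and Pclaf cluster. In the whole class it was 1066 and 580 in micrometastasis Ctrl and Tim3-KD, and 1402 and 789 at macrometastasis. The share of the F13a1 and Pclaf cluster, low in these genes, was larger in Tim3-KD at both sites, and its part in the list was not tested. Between the Ctrl libraries of the metastatic sites, the level of Ms4a4c in the Ccr2 cluster hardly differed (892 and 893 CPM), unlike that of the list.

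Over whole libraries most ratios were further from 1, and the makeup of the sorted cells differed between the libraries compared. Of all genes, 63.7% were at least 1.5-fold higher or lower at AT, 40.2% at micrometastasis and 27.8% at macrometastasis. All 5 members were lower in Tim3-KD by that fold at micrometastasis, where 1000 of 2669 genes were lower and 72 higher. At AT 2 members were higher and 3 lower, and at macrometastasis 2 were higher (Ms4a6c and Ms4a6d) and 0 lower. The ratio that the class shares alone would give was computed from the class levels of Ctrl and the UMI shares of the classes in Tim3-KD. For Ms4a1 at micrometastasis the measured ratio was 0.0581 and the ratio from shares alone 0.0896, and at AT they were 4.21 and 5.46. Ms4a4b had 3.15 and 3.75 at AT, 0.472 and 0.522 at micrometastasis, and 0.842 and 0.769 at macrometastasis. The myeloid members at micrometastasis had 0.364 and 0.646 (Ms4a4c), 0.609 and 0.691 (Ms4a6c), and 0.367 and 0.622 (Ms4a6d). The ratio from class levels alone, the measured ratio over that from shares, was 0.649 for Ms4a1, 0.906 for Ms4a4b, 0.563 for Ms4a4c, 0.881 for Ms4a6c and 0.590 for Ms4a6d at micrometastasis, so for Ms4a4c and Ms4a6d it was further from 1 than that from shares. At AT Ms4a6d had a measured ratio of 0.478, 0.885 from shares and 0.541 from levels, and at macrometastasis 1.63, 1.17 and 1.38. For Ms4a4c the ratio from shares was the one further from 1 at these sites. It had 0.624 from shares and 1.04 from levels at AT, and 1.29 and 0.992 at macrometastasis. The ratio from class levels also holds shifts between the clusters of a class. For Ms4a1 at micrometastasis, B-like cells were 12.7% of the Ctrl cells and 1.38% of the Tim3-KD cells, while the median B-like cell had 3484 and 4233 UMIs. The median gene over all cells had a log2 ratio of 0.59 at AT, -0.43 at micrometastasis and -0.26 at macrometastasis. Relative to all genes, the log2 ratio at micrometastasis was -3.66 for Ms4a1, -0.64 for Ms4a4b, -1.02 for Ms4a4c, -0.28 for Ms4a6c and -1.01 for Ms4a6d, and relative to all genes Ms4a4b at macrometastasis turned from -0.25 to 0.0212 on the log2 scale.

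Between sites, each of the 5 members in its lineage class was higher at micrometastasis than at AT and lower at macrometastasis than at micrometastasis in the Ctrl libraries, but not in every cluster of the class. The micrometastasis over AT ratio was 1.41 (1.32 to 1.51) for Ms4a1, 1.25 (1.16 to 1.36) for Ms4a4b, 1.49 (1.43 to 1.55) for Ms4a4c, 1.24 (1.21 to 1.28) for Ms4a6c and 1.85 (1.78 to 1.92) for Ms4a6d. The macrometastasis over micrometastasis ratio was 0.699 (0.658 to 0.742), 0.842 (0.791 to 0.897), 0.679 (0.643 to 0.717), 0.696 (0.669 to 0.723) and 0.535 (0.508 to 0.563) in the same order. Among genes of 100 or more UMIs that both matrices hold, 65.3% of those of B-like, 47.4% of T-like and 64.5% of monocyte-like cells were above 1 in the former ratio, with median log2 ratios of 0.14, -0.0385 and 0.18. In the latter, 37.8, 59.2 and 28.2% were below 1, with medians of 0.11, -0.0862 and 0.31. The share at least 1.5-fold higher or lower was 19.1%, 22.7% and 27.9% in the former and 21.5%, 13.9% and 38.7% in the latter. Both ratios share the micrometastasis Ctrl library, and in the latter site and day cannot be told apart. With T cells called one by one from lineage genes, the latter ratio of Ms4a4b turned from -0.25 to 0.0898 on the log2 scale. Within the T-like clusters, Ms4a4b was 1.44 (1.21 to 1.72) and then 0.749 (0.657 to 0.855) in the Lef1 and Il7r cluster, 0.882 (0.762 to 1.02) and 1.33 (1.16 to 1.54) in the Xcl1 and Cxcr6 cluster, and 0.767 (0.624 to 0.944) and 1.33 (1.12 to 1.58) in the Ctla4 and Tnfrsf4 cluster, the last of which thus ran opposite to the class. The Cd8b1 and Ccl5 cluster was 3.30% of T-like cells in AT Ctrl and 21.4% in micrometastasis Ctrl, and its latter ratio was 0.645 (0.583 to 0.713). Ms4a1 was 1.21 (1.12 to 1.31) and then 0.713 (0.668 to 0.762) in the Ighd and Fcmr cluster, but 2.50 (2.13 to 2.96) and then 1.51 (1.26 to 1.81) in the Vpreb3 and Iglc1 cluster. The monocyte-like cells were of different makeup at the metastatic sites. The Thbs1 and Vcan cluster and the Adgre4 and Treml4 cluster, both lower in the 3 genes than the Ccr2 cluster, were 2 and 3 of 707 monocyte-like cells in micrometastasis Ctrl and 57 and 50 of 273 in macrometastasis Ctrl. Within the Ccr2 cluster, Ms4a4c was 1.26 (1.20 to 1.33) and then 1.00 (0.945 to 1.06), Ms4a6c 1.13 (1.09 to 1.17) and 0.912 (0.872 to 0.952), and Ms4a6d 1.47 (1.41 to 1.54) and 0.710 (0.672 to 0.750). In the Trem2 and Spp1 cluster, macrometastasis over micrometastasis was 0.179 (0.149 to 0.213) for Ms4a4c, 0.437 (0.399 to 0.478) for Ms4a6c and 0.344 (0.315 to 0.376) for Ms4a6d, between the different mixes of cells given above.

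For each member, the genes with the most similar pattern were taken from 1641 genes by Pearson's r of log2(CPM + 1) over 48 units, each 1 class in 1 library with 50 or more cells. The units share libraries and a few high classes set r, so it is a description. Ms4a1 was closest to Pou2af1 (r = 0.98), a B cell transcriptional coactivator, and Ighd (0.96) was also among its nearest genes. Ms4a4b was closest to Gm33104 (0.93), Ctsw (0.92) and Skap1 (0.92), the latter an adaptor of T cell receptor signaling. Ms4a4c was closest to the interferon-inducible Ifi209 (0.89), Ifi30 (0.82) and Crip1 (0.81). Ms4a6c was closest to Ms4a6d (0.90), Ctsc (0.87) and Tubb6 (0.81), and Ms4a6d to the Fc receptor gene Fcgr1 (0.92), Lrp1 (0.91) and Trem2 (0.91). Within the family, Ms4a4c had r = 0.75 with Ms4a6c, 0.65 with Ms4a6d and 0.31 with Ms4a4b, its neighbor on the chromosome.

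Of 14 other Ms4a genes looked for, 5 were in at least 1 matrix. Ms4a2, the beta chain of the high-affinity IgE receptor, was in the micrometastasis matrix and at 462 CPM in basophil or mast-like cells. Ms4a3, a gene of granulocyte and monocyte progenitors, was at 1090.3 CPM in neutrophil precursor-like and 588 in progenitor-like cells. In monocyte-like cells Ms4a3 was 19.1 and 123 CPM, a ratio of 6.44 (5.47 to 7.62) at micrometastasis and 3.71 and 58.4 CPM, a ratio of 15.8 (8.72 to 31.8) at macrometastasis, where the Ctrl level is 11 UMIs. At AT it had 424 UMIs in monocyte-like cells of Ctrl and 0 in the 21 cells of Tim3-KD. The F13a1 and Pclaf cluster was a larger share of the monocyte-like cells of Tim3-KD than of Ctrl at both sites. Within clusters at micrometastasis the Ms4a3 ratio was 2.62 (2.20 to 3.14) in the F13a1 and Pclaf cluster and 2.07 (1.14 to 3.78) in the Ccr2 cluster. Ms4a6b and Ms4a7 were not in the AT matrix, so their levels are over the libraries of the metastatic sites only. Ms4a6b crossed the lineages, at 357 CPM in T-like, 340.4 in monocyte-like, 157 in NK or ILC1-like and 115 in Kupffer-like cells, unlike its close relative Ms4a6c. Since Ms4a6c shares sequence with Ms4a6b, as given above, and was at 1064 to 1529.7 CPM in monocyte-like cells, the level and ratios of Ms4a6b in monocyte-like and Kupffer-like cells are uncertain. Its Tim3-KD over Ctrl ratio in monocyte-like cells was 0.558 (0.532 to 0.586) at micrometastasis, with 0.873 (0.825 to 0.923) within the Ccr2 cluster and 0.682 (0.604 to 0.771) within the F13a1 and Pclaf cluster, and 0.894 (0.828 to 0.966) at macrometastasis. Ms4a7 was low, at 49.6 CPM in the Trem2 and Spp1 cluster and 32.1 in Kupffer-like cells. Ms4a8a was at 152 CPM in Kupffer-like and 87.2 in monocyte-like cells, and in Kupffer-like cells its ratios were 0.555 (0.379 to 0.827) at AT, 1.48 (1.33 to 1.64) at micrometastasis and 2.14 (1.95 to 2.36) at macrometastasis.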

How the data were processed

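Single-cell RNA-seq libraries of sorted CD45+ liver cells were analyzed, 1 library per group and 6 in all, grouped by the GEO labels. Per the labels and the methods of the study, the authors trimmed reads with Trim Galore 0.4.3, mapped them with STAR 2.7.7a to GRCm38 (Ensembl 102), counted reads in exons and introns, kept cells of 1000 to 500000 UMIs with over 1000 detected genes and under 20% of mitochondrial origin, and removed doublets by scrublet. The deposited values are scores: log-normalized counts scaled per gene and capped at 10, for 4486, 2669 and 2643 selected genes at AT, micrometastasis and macrometastasis. Genes outside these lists were not analysed here.

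UMI counts were recovered from the scores, because per gene and cell each score is 1 of few steps. Within 0.05 of a whole number, 99.9999, 99.9999 and 99.9981% of values were whole, and 100% of the member values, with 0 member values at the cap. The inversion was tested on 1 simulated matrix with the totals and gene means of AT (4486 genes, 2345 cells), where 100% of the values under the cap were recovered. The simulated scores were made by the model that the inversion assumes, with log-normalization, regression on the total UMIs of a cell, scaling and the cap. The simulation thus tests the arithmetic and cannot show that the deposited scores follow this model. Among cells under the median total, 93.2, 95.5 and 99.5% of recovered totals were whole at AT, micrometastasis and macrometastasis. The matrices hold 14.7, 11.3 and 13.1% of all UMIs, and totals per cell were recovered from the normalization.

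Cells were clustered on 1635 genes common to the matrices, without Ms4a genes (30 principal components, 15 neighbors, Leiden resolution 1; Python 3.11.15, scikit-learn 1.9.0, leidenalg 0.10.2), and named by marker lists with 3 or more markers. Levels were summed UMIs per 1000000 (CPM) with exact Poisson intervals, ratios had exact conditional binomial intervals and shares exact Clopper-Pearson intervals. With the 3 sites as pairs, the mean log2 ratio of each member was tested by an exact two-sided permutation test that flips the sign of each pair, added after seeing the data. A ratio needed 20 or more cells in both libraries and 20 or more UMIs. No doublets were removed again. Named genes were the members, the other Ms4a genes of a matrix, the 3 genes most similar to each member (500 or more UMIs) and 3 gene lists given by counts and medians. A result under this rule is not reported here. Members and lists were chosen with earlier results of these data known. The design assumed that UMIs could be recovered. There were 0 unmapped sample columns. Promoters are from RefSeq, gene positions from GENCODE vM21.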

Additional observations from a re-analysis of the deposited data

Results flagged for a closer look

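The Tim3-KD over Ctrl ratio of 3 members lay below 1 at one site and above 1 at another with both counting intervals clear of 1, and the difference between sites was not tested, since each rests on 1 library per group. For Ms4a4b in T-like cells, the log2 ratio at macrometastasis was above that at AT by 0.48 and above that at micrometastasis by 0.26. Relative to the trimmed mean over genes, the log2 ratios of Ms4a4b were -0.0615 at AT, -0.0955 at micrometastasis and 0.0381 at macrometastasis, so the gaps were smaller, and with T cells called one by one the AT value turned to 1.97. Of the T cells called so at AT, 40.1% in Ctrl and 84.3% in Tim3-KD lay in T-like clusters. For Ms4a6c in monocyte-like cells, it was above that at micrometastasis by 0.56. For Ms4a6d in monocyte-like cells, it was above that at AT by 1.13 and above that at micrometastasis by 1.27. The AT values rest on 21 monocyte-like cells in Tim3-KD and on the smallest library, and the share of the F13a1 and Pclaf cluster among monocyte-like cells differed between Ctrl and Tim3-KD at every site. Its part in these differences was not tested.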

How the results depend on the processing

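No paired analysis was possible by replicate number because each group had 1 library. With the 3 sites as pairs, p from the exact permutation test was 0.25 to 1 for the 5 members, in a design that cannot go below 0.25. Each value here is a log2 ratio of Tim3-KD to Ctrl in the lineage class, in the order AT, micrometastasis and macrometastasis unless named. The named class in which each member was highest was the same under all settings run.

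With cells called one by one from lineage genes, Ms4a1 had 1.10 (against -0.36), -4.25 (-0.67) and -1.26 (-0.09), and Ms4a4b 1.97 (-0.39) and -1.58 (-0.16) at AT and micrometastasis. Ms4a4c had -0.93, -1.30 and 0.31, Ms4a6c -0.40, -0.64 and 0.47, and Ms4a6d -1.26, -1.45 and 0.70. Of the B cells called so, 14.8 to 78.1% lay in B-like clusters, and of the monocytes 35.1 to 48.8% in monocyte-like clusters. Of the T cells it was 36.7 to 84.3% in T-like clusters, with 40.1% in AT Ctrl and 84.3% in AT Tim3-KD. These calls thus hold many other cells, and not equally many in the libraries compared.

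With the mean over cells of UMIs per 10000, Ms4a4c had -0.26, -0.58 and 0.14 (a turn from -0.11), Ms4a6c -0.25, -0.21 and 0.30, and Ms4a6d -1.21, -0.69 and 0.58. Relative to the trimmed mean over genes, Ms4a4b had -0.0615 at AT, Ms4a1 0.0803 at macrometastasis, and at micrometastasis and macrometastasis Ms4a4c had -0.74 and 0.15, Ms4a6c -0.21 and 0.45, and Ms4a6d -0.82 and 0.54. With Ms4a genes in the clustering, Ms4a4c had 0.29, -1.24 and -0.22, Ms4a6c 0.14, -0.58 and 0.0823, and Ms4a6d -1.29 and 0.15 at the metastatic sites. At resolution 2 these sites had -1.21 and -0.20 (Ms4a4c), -0.57 and 0.0792 (Ms4a6c), and -1.26 and 0.14 (Ms4a6d). With the Trem2 and Spp1 cluster counted as monocyte-like, chosen after seeing the data, they had -0.75 and 0.16, -0.19 and 0.38, and -0.90 and 0.42. Without cells of doublet score over 0.15, Ms4a6c at macrometastasis had 0.12. Cells under 3000 UMIs and the cap moved none of these ratios past its interval. The causes were not tested. Over all settings, 97 of the main ratios and counts stayed within their limits, 50 moved and 6 turned, and of the further values 107 stayed, 106 moved and 3 turned.

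Over all cells at macrometastasis, Ms4a4b turned from -0.25 to 0.00563 (mean over cells) and 0.0212 (trimmed mean), and its macrometastasis over micrometastasis ratio in T-like cells to 0.0898 with cells called one by one. At 2-fold in place of 1.5-fold, 0 members were past the limit in monocyte-like cells at AT (against 1) and micrometastasis (2), in B-like cells at micrometastasis (1) and over all cells at macrometastasis (2). Few cells limit AT Tim3-KD and micrometastasis Tim3-KD B-like values.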
